A study of Mus musculus with 6 samples.

Results

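The replication-dependent histone genes, which make the bulk of the histone protein that packages newly copied DNA, were examined by class in primary mouse embryonic fibroblasts (pMEFs) labelled HAT1 WT and HAT1 KO. The rule that found them reads gene symbols, taking the genes named H1f1 to H1f5 or with a Hist1 to Hist4, H2ac, H2bc, H3c or H4c symbol, and uses no measured value. It found 54 of the 17512 genes in the count table, of which 5 code for the linker histone H1, 14 for H2A, 13 for H2B, 10 for H3 and 12 for H4. RNA-seq covered 6 pMEF lines on the C57bl6 background, 3 labelled HAT1 WT (lines 36, 47 and 78) and 3 labelled HAT1 KO (lines 33, 41 and 72). All of them were untreated and were grown in the same serum-containing medium. In the study, pMEFs were taken from mid-gestation embryos after removal of the internal organs and were genotyped by PCR. The labels do not say whether each line came from an embryo of its own, so p-values measure the spread between these lines only.

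In the nucleosome, DNA is wrapped around H2A-H2B dimers and an H3-H4 tetramer, and H1 binds the linker DNA between nucleosomes. The replication-dependent genes that encode these proteins lie in clusters and are read mainly in S phase, when new chromatin is assembled. Their mRNAs typically have no introns and end in a conserved stem-loop in place of a poly(A) tail. The stem-loop is bound by SLBP, which directs cutting of the 3′ end, translation and decay of the mRNA. HAT1 acetylates new histone H4 in the cytoplasm before deposition. The libraries were made with a kit whose standard protocol selects polyadenylated RNA. Whether that step was kept unmodified is not given in the sources used here, and the values below therefore count only the histone RNA that entered such libraries.

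On GRCm38, the assembly also called mm10, 49 of the 54 genes lie on chr13:21715763-23764406 and 5 on chr3:96219865-96263311. In 53 of them the annotation holds a transcript of 1 exon, the exception being H2bc4. The histone stem-loop, searched as a pattern of 16 bases in the annotated transcripts, was found in 37 of the 54 genes, whereas 86 of all 55450 annotated genes, or 0.155%, carried it. Of the 17 members without it, 13 have short annotated models. Whether these models reach beyond the coding sequence, where the stem-loop would lie, was not checked. The sequences are shown because they set the H4 genes apart from the other classes. Capitals mark the 16 bases of the stem-loop, lower case the flanking bases, each written 5′ to 3′ in the sense of the mRNA with T for U.
H3c2 (H3, chr13:23752267-23752886, plus strand): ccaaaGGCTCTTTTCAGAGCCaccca
H2bc12 (H2B, chr13:22035870-22036345, plus strand): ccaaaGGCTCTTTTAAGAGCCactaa
H2ac20 (H2A, chr3:96220361-96220880, minus strand): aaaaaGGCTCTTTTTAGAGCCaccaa
H4c8 (H4, chr13:23531050-23531519, plus strand): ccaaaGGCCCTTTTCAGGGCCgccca
H4c9 (H4, chr13:22040636-22041362, minus strand): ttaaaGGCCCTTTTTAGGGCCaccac
H4c1 (H4, chr13:23760692-23761230, minus strand): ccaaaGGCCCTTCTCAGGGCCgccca
The form printed for H3c2 was shared by 19 members, 3 of them H1, 7 H2A, 5 H2B and 4 H3 genes. That of H4c8 was found in 6 members, all of them H4 genes. The form of H2bc12 occurred in 2 H2B and 3 H3 genes, and that of H4c9 in 2 H4 genes. None of the 8 different forms occurred both in an H4 gene and in a gene of another class.

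The promoters also differed by class. Windows from 250 bases before to 50 bases after the RefSeq transcription start were available for 49 members on GRCm38, and motifs were searched on both strands. A CCAAT box, searched as CCAAT, was present in all 5 H1, 14 H2A, 11 H2B and 8 H3 windows but in 3 of 11 H4 windows, against 41.1% of the windows of all 27025 genes. The octamer ATTTGCAT, the motif of POU domain factors, was found in 5 of 14 H2A and 4 of 11 H2B windows and in no H1, H3 or H4 window, against 1.97% of all genes. The TATA box TATAAA was found in 31 of the 49 windows, against 15.7% of all genes. H2A and H2B genes share many of these windows, since 9 H2A-H2B pairs are read away from a common stretch. The stretch between H2ac8 and H2bc8 is shown as an example because it is short and holds all 3 motifs. It spans chr13:23571221-23571399 and is written on the plus strand, with H2ac8 to its left on the minus strand and H2bc8 to its right on the plus strand. Capitals mark CCAAT or its complement, the octamer and the TATA box.
H2ac8 to H2bc8: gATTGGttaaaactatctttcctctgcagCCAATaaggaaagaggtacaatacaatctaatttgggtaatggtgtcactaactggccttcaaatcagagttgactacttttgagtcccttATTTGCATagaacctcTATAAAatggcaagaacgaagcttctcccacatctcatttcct

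The libraries held between 67720628 and 98786746 counts. Hat1, the targeted gene, was at 17.4, 23.0 and 20.1 CPM (counts relative to the library size, scaled by TMM) in WT lines 36, 47 and 78 and at 10.2, 10.0 and 10.3 CPM in KO lines 33, 41 and 72. This gave a log2 fold change of -0.99 (SE 0.12, adjusted p = 0.0376 in edgeR), while a model with the sequencing lane gave an adjusted p of 0.529 in edgeR. Hat1 RNA was thus still counted in every KO line, at 0.505 of the WT level in the fit, and which part of the gene the KO allele lacks is not given in the labels. Without any one line the adjusted p-value of Hat1 ran from 0.0587 to 0.230. KO line 72 was least like the others, with a mean Pearson correlation of 0.957 to the other lines over 12353 genes, against 0.975 to 0.981 for each other line. All 3 KO lines and WT line 78 had at most 231 counts over the Y-linked genes examined, while WT lines 36 and 47 had at least 12841. Xist had 94, 1179 and 29520 counts in WT lines 36, 47 and 78 and 11233 to 13722 in the KO lines. The sex-linked pattern was thus not balanced between the genotypes. Summed fibroblast markers lay at 60311 to 68080 CPM in WT and 45715 to 77529 CPM in KO, and none of these 8 markers was at 0. All 6 myeloid markers had an unadjusted p-value under 0.05 and were lower in HAT1 KO, 5 of them at an adjusted p-value under 0.05 in edgeR, with sums of 4196 to 4552 CPM in WT and 2002 to 2479 CPM in KO. The 4 endothelial markers summed to at most 12.5 CPM and the 4 epithelial markers to at most 2.14 CPM in any line. The part of these differences between the lines in the histone values was not tested.

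Taken as a whole, the histone genes were higher in the HAT1 KO lines. They summed to 1605, 2199 and 1339 CPM in WT lines 36, 47 and 78, and 3986, 2691 and 2318 CPM in KO lines 33, 41 and 72. Every KO line lay above every WT line, although KO line 72 exceeded WT line 47 by little. The means were 1714 ± 440.1 CPM in HAT1 WT and 2998 ± 875.4 CPM in HAT1 KO (SD, n = 3 each), a ratio of 1.75. In counts, histone genes made up 0.134% to 0.223% of the WT libraries and 0.233% to 0.396% of the KO libraries. In bulk RNA a larger share of cells in S phase and more histone mRNA in each of these cells cannot be told apart. Nor can either be told apart from a larger part of the histone mRNA entering the libraries. The sums describe the lines and carry no test.

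The ratio did not rest on a single line, but its size moved with the lines. Without KO line 33 it was 1.46, without KO line 72 it was 1.95, and without WT line 47 it was 2.04. Within sequencing lane 6, which held WT line 47 and KO lines 33 and 72, the ratio was 1.43. Within lane 7, which held WT line 78 and KO line 41, it was 2.01, and lane 8 held WT line 36 alone. WT line 78 had the fewest Y-linked counts of the WT lines, 231, against 4 to 8 in the KO lines. The KO mean was 2.24 times the level of this WT line.

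Each of the 5 classes was higher in the KO lines, and H3 had the largest ratio of means. H3 summed to 312.0, 473 and 266 CPM in WT lines 36, 47 and 78 and to 981, 604 and 534 CPM in KO lines 33, 41 and 72, a ratio of 2.02. For H2A the sums were 79.3, 121 and 64.4 CPM in WT and 219, 146 and 123 CPM in KO, a ratio of 1.84. In H2A the highest WT line, line 47, and the lowest KO line, line 72, were almost level, and in H3 they were further apart. H2B stood at 293, 377 and 251 CPM in WT and 757, 457 and 424 CPM in KO, with a ratio of 1.78. H4, the histone that HAT1 acetylates, stood at 438, 620.1 and 362 CPM in WT and 1076, 755 and 634 CPM in KO, with a ratio of 1.74. H1 had the smallest ratio, 1.54, with 483, 608 and 395 CPM in WT and 953, 730 and 603 CPM in KO. H1 was the one class whose lines overlapped, since KO line 72 lay just below WT line 47.

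The share of each class in the histone RNA was also compared within each library, which does not depend on scaling and was not tested. H1 genes supplied 30.1%, 27.6% and 29.5% of the summed histone CPM in WT lines 36, 47 and 78 and 23.9%, 27.1% and 26.0% in KO lines 33, 41 and 72. H3 genes supplied 19.4%, 21.5% and 19.9% in WT and 24.6%, 22.4% and 23.0% in KO. For these 2 classes no KO line overlapped a WT line, H1 being lower and H3 higher, but KO line 41 and WT line 47 lay close together in both. The shares of H2A (4.81% to 5.50%), H2B (17.0% to 19.0%) and H4 (27.0% to 28.2%) over all 6 lines overlapped between the genotypes. The lower H1 share leaned on H1f2, described below, and does not describe every H1 gene. H1f2 made up 44.1% of H1 CPM in HAT1 WT and 36.3% in HAT1 KO, and H1f1 made up 7.27% and 6.24%. The part of the other H1 genes was larger in HAT1 KO, from 17.8% to 22.6% for H1f3, 12.1% to 15.9% for H1f5 and 18.7% to 19.0% for H1f4.

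**Figure D1:**
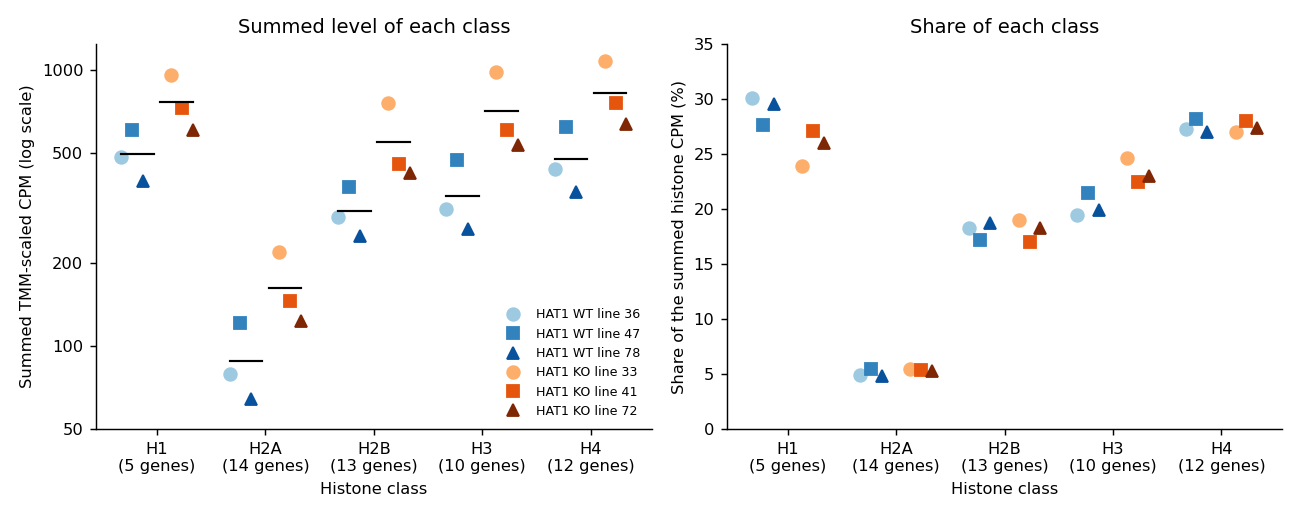
Summed TMM-scaled CPM of each histone class (left, log scale, bars mark the mean of 3 lines) and the share of each class in the summed histone CPM (right, %), with 1 point for each pMEF line. Every class sum is higher in the mean of the HAT1 KO lines, and the H1 share is lower and the H3 share higher in all 3 KO lines than in any WT line. H1f2 alone made up 44.1% of H1 CPM in HAT1 WT and 36.3% in HAT1 KO.

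The test of single genes showed a shift of nearly all members in the same direction. Of the 54 genes, 51 passed the filter on low counts, and 50 of these were higher in HAT1 KO, whereas 51.5% of all 14773 tested genes were. With an unadjusted p-value under 0.05, 36 of the 51 were higher and 0 were lower, against 5.88% of all tested genes higher and 8.77% lower. None of the 51 had an adjusted p-value under 0.05 in edgeR, where 0% of all genes were called higher, and the smallest adjusted p-value of a member was 0.159. With the DESeq2 Wald test 25 members were higher at an adjusted p-value under 0.05, against 1.50% of all tested genes. In 28 of the 51 all KO lines lay above all WT lines, and in 0 all lay below, against 9.59% and 12.4% of all tested genes. The median log2 fold change of the tested members was 0.89, while that of all genes was 0.0085. The count of 36 fell to 14 without WT line 36, to 14 without WT line 78, to 17 without KO line 33 and to 10 once the lane was modelled. The share of all genes that were higher fell in these fits too, to 3.02%, 3.11%, 4.30% and 1.39%. No member was lower at an unadjusted p-value under 0.05 in any of these fits.

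By class, the members that were higher with an unadjusted p-value under 0.05 numbered 2 of 5 for H1, 7 of 12 tested for H2A, 8 of 12 tested for H2B, 8 of 10 for H3 and 11 of 12 for H4. Over all tested genes the share was 5.88%. The median log2 fold changes were 0.64 for H1, 0.84 for H2A, 0.95 for H2B, 1.03 for H3 and 0.86 for H4. The differences between classes were not tested. The 3 genes that did not pass the filter, Hist1h2ao, Hist1h2ap and Hist1h2br, had between 0 and 9 counts in any line. These genes are near-identical to neighbours, and of the windows of 50 bases in their transcripts between 6.50% and 11.3% were unique among all annotated transcripts. How reads that match several such copies were counted is not given in the sources used here.

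**Figure D2:**
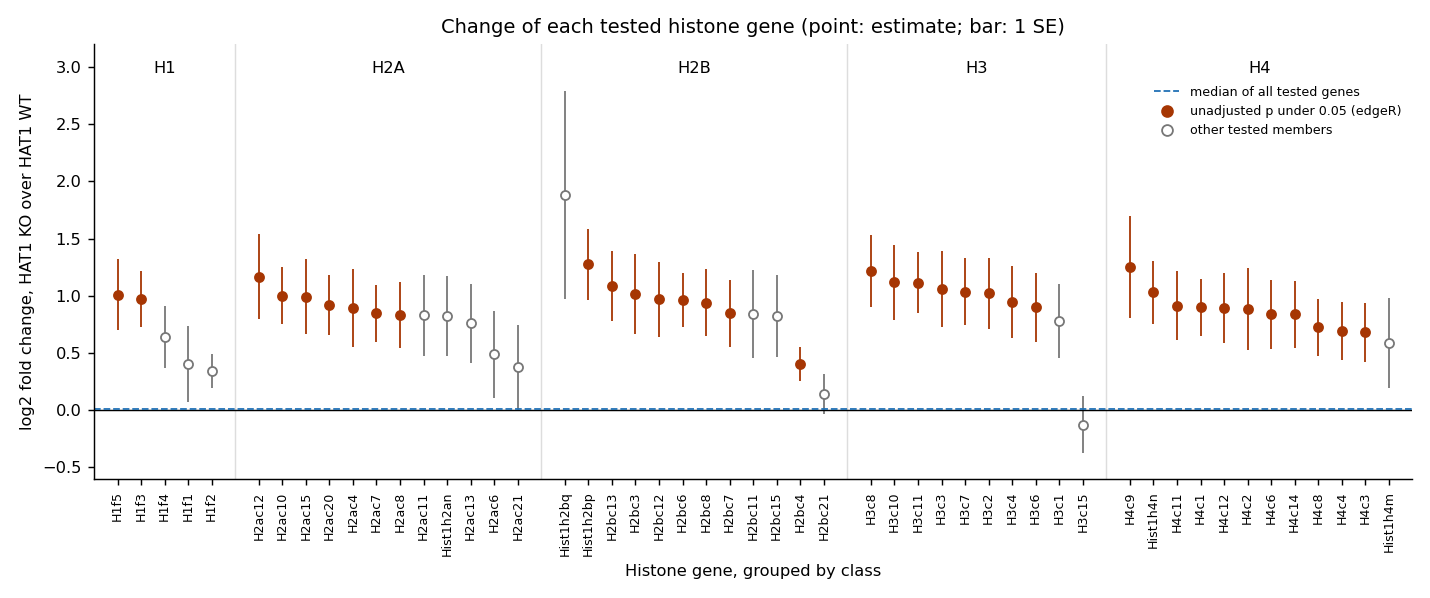
Log2 fold change (HAT1 KO over HAT1 WT, edgeR, 3 lines each) of the 51 tested histone genes by class, with bars of 1 SE, and the median of all tested genes as a dashed line. Filled points mark an unadjusted p-value under 0.05, which 36 members reached, and H3c15 is the single member below 0.

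Among the linker histones, which bind the DNA between nucleosomes and compact it, 2 patterns were seen. H1f3 was at 85.0, 110.1 and 68.9 CPM in WT lines 36, 47 and 78 and at 221, 166 and 131 CPM in KO lines 33, 41 and 72, with all KO lines above all WT lines. Its log2 fold change was 0.97 (SE 0.24, unadjusted p = 0.00635 and adjusted p = 0.171 in edgeR). H1f5 had a similar change of 1.01 (SE 0.31, adjusted p = 0.231 in edgeR). H1f2, the most abundant member of all by CPM, was at 226, 247 and 182 CPM in WT and 323, 250.1 and 257 CPM in KO. The KO lines lay above the WT lines here too, but KO line 41 was only just above WT line 47, and the log2 fold change was 0.34 (SE 0.15, unadjusted p = 0.0611 and adjusted p = 0.366 in edgeR). For H1f4 the log2 fold change was 0.64 and for H1f1 0.40, with overlapping lines in both and no unadjusted p-value under 0.05.

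H2A genes, which encode one partner of the H2A-H2B dimer, had the lowest levels of the 5 classes. The 3 highest by CPM were H2ac15, H2ac20 and H2ac8, which together made up 46.4% of H2A CPM in HAT1 WT and 47.8% in HAT1 KO. H2ac15 was at 15.4, 24.5 and 13.5 CPM in WT lines 36, 47 and 78 and at 49.4, 31.8 and 24.8 CPM in KO lines 33, 41 and 72, a log2 fold change of 0.99 (SE 0.33, unadjusted p = 0.0218 in edgeR). KO line 72 and WT line 47 were almost level for this gene. H2ac20 stood at 11.04, 16.05 and 9.41 CPM in WT and 29.6, 21.2 and 18.2 CPM in KO, with no overlap and a log2 fold change of 0.92 (SE 0.26, unadjusted p = 0.0116 in edgeR). H2ac8 had a log2 fold change of 0.83, and KO line 72 lay just below WT line 47. The other H2A genes with an unadjusted p-value under 0.05 were H2ac10 (1.00), H2ac4 (0.89), H2ac7 (0.85) and H2ac12, and tested H2A members ranged from 0.37 for H2ac21 to 1.17 for H2ac12. Each of the 14 H2A genes overlaps another annotated gene, in most cases a short predicted transcript, and use of strand in counting is not given in the sources used here.

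H2B, the other partner of the dimer, was led by H2bc4, H2bc6 and H2bc8. H2bc4 was at 76.1, 71.1 and 62.1 CPM in WT lines 36, 47 and 78 and at 107, 73.9 and 96.1 CPM in KO lines 33, 41 and 72. KO line 41 lay among the WT lines, and the log2 fold change of 0.40 (SE 0.15, unadjusted p = 0.0352 in edgeR) was smaller than that of most H2B genes. H2bc6 stood at 37.7, 47.03 and 31.0 CPM in WT and 98.8, 68.8 and 57.8 CPM in KO, a log2 fold change of 0.96 (SE 0.24, unadjusted p = 0.00612 in edgeR) without overlap. The model of H2bc6 overlaps that of H1f4. H2bc8 had a log2 fold change of 0.94, again without overlap. The largest estimate of any member was that of Hist1h2bq, 1.88 with an SE of 0.91, but it rested on 0 to 17 counts per line and its unadjusted p-value was 0.0817. Hist1h2bp followed with 1.27 (SE 0.31, unadjusted p = 0.00573 in edgeR). H2bc13 (1.09), H2bc3 (1.02), H2bc12 (0.97) and H2bc7 (0.85) also had an unadjusted p-value under 0.05. H2bc21 on chromosome 3 was at 1.88, 1.66 and 1.87 CPM in WT and 2.09, 1.98 and 1.89 CPM in KO, a log2 fold change of 0.14 (SE 0.17).

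H3, which forms the tetramer with H4 and carries the lysine 9 methylation of heterochromatin, was led by H3c3, H3c6 and H3c7. H3c3 was at 58.5, 95.6 and 48.2 CPM in WT lines 36, 47 and 78 and at 197, 108 and 116 CPM in KO lines 33, 41 and 72. The KO lines lay above the WT lines, and the log2 fold change was 1.06 (SE 0.33, unadjusted p = 0.0180 in edgeR). The smallest p-value of any member was that of H3c11, at 34.9, 49.9 and 30.3 CPM in WT and 111, 74.9 and 63.5 CPM in KO, a log2 fold change of 1.11 (SE 0.27, unadjusted p = 0.00533 and adjusted p = 0.159 in edgeR). H3c8 had the largest H3 estimate, 1.22 (SE 0.31, unadjusted p = 0.00747 in edgeR), without overlap. The log2 fold changes of the other H3 genes with an unadjusted p-value under 0.05 were 1.12 for H3c10, 1.04 for H3c7, 1.02 for H3c2, 0.95 for H3c4 and 0.90 for H3c6. H3c11 and H3c10 share most of their sequence with other H3 genes, 12.4% and 6.08% of their windows being unique, so that their separate values are uncertain. H3c15 on chromosome 3 was the one member with a lower estimate, at 2.65, 2.14 and 2.31 CPM in WT and 1.65, 2.06 and 2.80 CPM in KO. The lines overlapped, the log2 fold change was -0.13 (SE 0.25, unadjusted p = 0.626 in edgeR), and it was 0.04 without KO line 33. Only 36.5% of the windows of H3c15 were unique, so its value is uncertain too. The other members on chromosome 3 had log2 fold changes of 0.92 (H2ac20), 0.84 (H4c14), 0.37 (H2ac21) and 0.14 (H2bc21).

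H4 had the largest share of members at an unadjusted p-value under 0.05 in edgeR, with log2 fold changes from 0.59 to 1.25. This rank depended on the cutoff. At an adjusted p-value under 0.05 with the DESeq2 Wald test, H4 had 4 of 12, the smallest share of the 5 classes, and H3 had 8 of 10. H1 with 2 of 5 and H2A with 5 of 12 tested were close to H4. Over all tested genes the share was 1.50%. H4c4 was at 82.5, 116 and 66.5 CPM in WT lines 36, 47 and 78 and at 184, 127 and 117 CPM in KO lines 33, 41 and 72, with a log2 fold change of 0.69 (SE 0.25, unadjusted p = 0.0327 in edgeR). H4c8 stood at 78.1, 104 and 60.4 CPM in WT and 170.5, 122 and 108 CPM in KO, with a log2 fold change of 0.72 (SE 0.25, unadjusted p = 0.0251 in edgeR). Both genes were higher in all KO lines. H4c6 was at 49.1, 77.1 and 43.4 CPM in WT and 139, 88.1 and 75.7 CPM in KO, a log2 fold change of 0.84 (SE 0.30, unadjusted p = 0.0311 in edgeR), and KO line 72 lay just under WT line 47. Of the remaining H4 genes, Hist1h4n (1.03), H4c11 (0.91), H4c1 (0.90), H4c12 (0.89), H4c2 (0.88), H4c14 (0.84) and H4c3 (0.68) had an unadjusted p-value under 0.05. Hist1h4m and H4c9 departed from this pattern in 1 KO line and are described below.

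Per kilobase of annotated exon, a scale on which genes can be compared, mean levels over the 6 lines were highest for H4c8 (228 CPM per kb, lines from 129 to 363), H4c6 (201 CPM per kb, lines from 111 to 356) and H4c12 (187 CPM per kb, lines from 98.6 to 333). H3c3 followed at 165 CPM per kb and H1f2 at 159 CPM per kb. The order differed between the genotypes, since H1f2 at 140.0 CPM per kb was above H4c12 (131) and H3c3 (107) in the HAT1 WT mean, while in the HAT1 KO mean it was at 177 CPM per kb, below H4c12 (243) and H3c3 (223). The line ranges of the 3 H4 genes overlap almost entirely, but within every line the order was H4c8, H4c6, H4c12. This order was not tested, and 28.5% of the windows of H4c12 were unique, so its level is uncertain. The highest H2A gene on this scale, H2ac15, reached 67.6 CPM per kb. These levels depend on the annotated model, since H1f3, whose model is 7425 bases long with 4884 bases after the stem-loop, had 17.5 CPM per kb although by CPM it was above H1f5 and H1f1 in every line. By CPM it was below H1f4 in every WT line and above it in every KO line.

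The H2A-H2B pairs that share a promoter stretch allow a comparison of neighbours. In 7 pairs both genes were tested, and in 6 of these the H2B gene had the higher level per kilobase, by a ratio of 1.86 to 6.59. For H2ac8 and H2bc8, whose common stretch is printed above, the levels were 21.7 and 84.3 CPM per kb. In these 7 pairs every H2A gene overlaps another annotated gene and no H2B gene does, and unique windows run as low as 7.87% for H2ac12 and 9.88% for H2ac13. The exception was Hist1h2an and Hist1h2bp, with 11.2 and 3.12 CPM per kb. The change between genotypes was closer than the level. The log2 fold change of the H2B gene minus that of its H2A partner lay between -0.20 and 0.45 over the 7 pairs, and for H2ac11 and H2bc11 the values were 0.83 and 0.84.

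The KO lines were not alike. KO line 33 was the highest of the 6 lines in 45 of the 51 tested members, and KO line 72 was the lowest KO line in 39. Among the WT lines, line 47 was the highest in 47 members. Over the 50 members with a mean of at least 30 counts, the median level relative to the WT mean was 2.56 in KO line 33, 1.73 in KO line 41 and 1.42 in KO line 72, while it was 0.933, 1.37 and 0.795 in WT lines 36, 47 and 78. WT line 47 was thus near KO line 72. Most members followed these medians closely, and the median absolute deviation was between 0.063 and 0.17 on the log2 scale in each line.

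A few genes departed from the median of their line by over 0.5 on the log2 scale, 6 in KO line 33, 10 in KO line 41, 1 in KO line 72, 2 in WT line 47 and none in the other WT lines. They were picked out after their values were seen. In KO line 33 the departures were all downward, in H3c15, H2bc21, H2ac21, H1f2, H2bc4 and H4c9. KO line 41 departed in both directions. H4c9 had 514, 612 and 435 counts in WT lines 36, 47 and 78 and 897, 1723 and 713 counts in KO lines 33, 41 and 72. KO line 41 was thus 4.06 times the WT mean in CPM, while the other KO lines averaged 1.54 times. Hist1h4m had 1343, 1777 and 1505 counts in WT and 3779, 923 and 2058 in KO. Here KO line 41 lay below every WT line, at 0.744 of the WT mean in CPM against 1.88 for the other KO lines. Its near-identical copy Hist1h4n, with which it shares 89.8% of its windows, was at 2.40 in KO line 41 against 1.86 in the other KO lines. The pair together was at 2.35, 1.50 and 1.40 times the WT mean in KO lines 33, 41 and 72, so that the low value of Hist1h4m was not seen in the sum. H2bc15, H2bc11 and H2ac6 were also low in KO line 41, at 0.542 to 0.600 of the mean of the other KO lines. H2ac11 and H2bc11 are the nearest members to H4c9 on one side on chromosome 13, and H2ac11 was at 0.609 of the other KO lines. Of the windows of H4c9, 71.1% were unique, against 10.2% for Hist1h4m, so that of these 2 only Hist1h4m shares most of its sequence with other H4 genes.

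**Figure D3:**
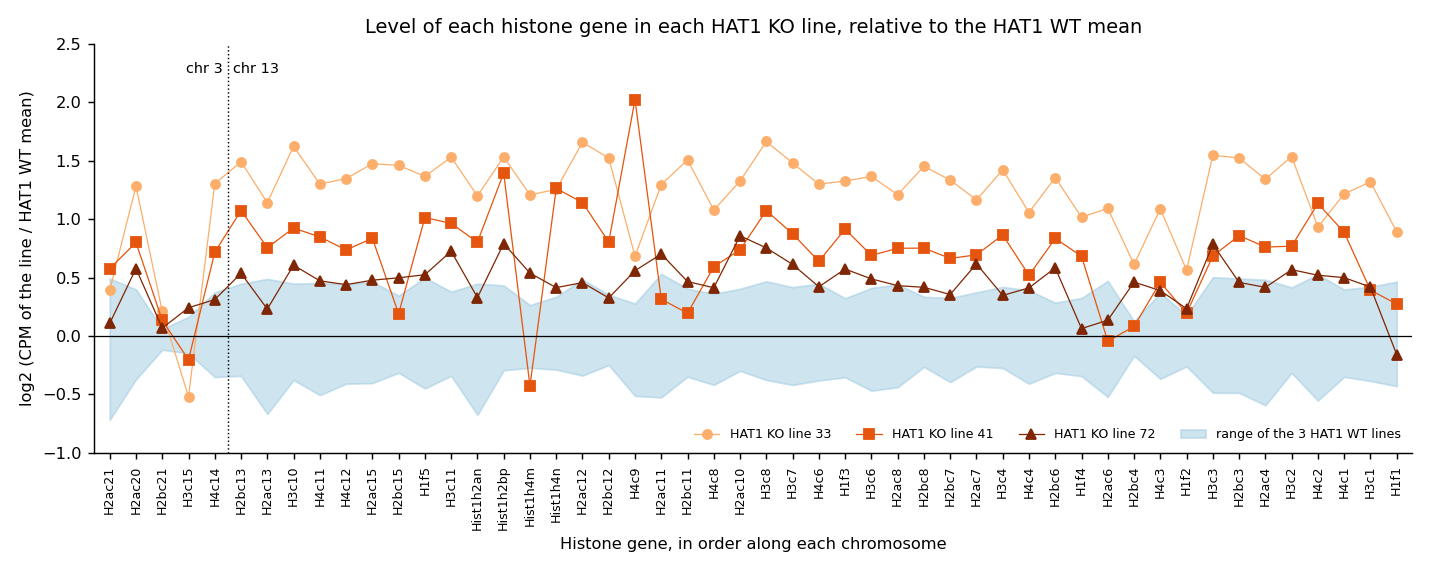
Log2 ratio of each HAT1 KO line to the HAT1 WT mean for 50 histone genes in their order along chromosomes 3 and 13, with the range of the 3 WT lines as a band. KO line 33 runs highest for most genes, and KO line 41 departs upward at H4c9 and downward at Hist1h4m.

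The type of 3′ end in the annotation was set beside the changes. In 14 members the annotated transcript runs on for over 300 bases after the stem-loop. All 14 were tested, and 10 were higher with an unadjusted p-value under 0.05, against 5.88% of all tested genes, with a median log2 fold change of 0.87 and a range from -0.13 to 1.25. Among the members with up to 300 bases after the stem-loop, 17 of 21 tested were higher with an unadjusted p-value under 0.05. Their median log2 fold change was 0.89. Of the 13 members with short models and no stem-loop in them, 8 were higher at that p-value, and the median was 0.99. In the remaining group, long models without a stem-loop, 3 were tested, namely H2bc4, H2bc21 and Hist1h2bq, with log2 fold changes of 0.40, 0.14 and 1.88. By sequence sharing, the median was 1.03 for tested members with under 20% unique windows, 0.90 for 20% to 60%, and 0.76 for 60% or more. These groups were not compared by a test.

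Genes that control histone mRNA were examined as a list. It held 27 genes for the activation of histone genes in S phase and the cutting, export or decay of their mRNAs, of which 26 were tested. With an unadjusted p-value under 0.05, 4 were higher and 1 was lower, against 5.88% and 8.77% of all tested genes, none passed at an adjusted p-value under 0.05 in edgeR, and the median log2 fold change was 0.09. Slbp, whose product binds the stem-loop, was at 18.8, 21.6 and 21.04 CPM in WT lines 36, 47 and 78 and at 23.4, 23.5 and 22.1 CPM in KO lines 33, 41 and 72, a log2 fold change of 0.17 (SE 0.09, unadjusted p = 0.0920 in edgeR). Npat, the cyclin E-CDK2 substrate that activates histone genes, had a log2 fold change of 0.08 (SE 0.07). The 3 genes with the smallest p-values in the higher direction were Ccne2 (0.54, SE 0.11, unadjusted p = 0.00255 in edgeR) and Ccne1 (0.60, SE 0.15, unadjusted p = 0.00740 in edgeR), which encode cyclin E, and Snrpb (0.23, SE 0.09), a shared component of small nuclear ribonucleoproteins. Both cyclin E genes were higher in all 3 KO lines, with Ccne1 at 18.6, 25.3 and 19.8 CPM in WT and 28.4, 31.0 and 37.1 CPM in KO. In the lower direction they were Tut7 (-0.26, SE 0.07, unadjusted p = 0.00901 in edgeR), a terminal uridylyltransferase that marks histone mRNA for decay, Tut4 (-0.38, SE 0.21) and Casp8ap2 (-0.13, SE 0.12).

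The replication-independent variants, which are made outside S phase as well, mostly had small estimates. All 11 listed variants had an estimate above 0, whereas 51.5% of all tested genes did. The list held 11 genes, of which 1 was higher with an unadjusted p-value under 0.05, against 5.88% of all tested genes, and none lower, with a median log2 fold change of 0.17. That gene was H2afx, the variant phosphorylated at DNA breaks, whose mRNA occurs with both a stem-loop and a poly(A) end. It was at 33.6, 44.6 and 24.9 CPM in WT lines 36, 47 and 78 and at 65.0, 45.5 and 46.2 CPM in KO lines 33, 41 and 72, a log2 fold change of 0.60 (SE 0.24, unadjusted p = 0.0449 and adjusted p = 0.330 in edgeR). H3f3a and H3f3b, both encoding H3.3, had log2 fold changes of 0.02 (SE 0.06) and 0.05 (SE 0.06). The linker variant H1f0 was at 0.02 (SE 0.08) and H1f10 at 0.33 (SE 0.15). For H2afz the value was 0.41 (SE 0.23), for H2afv 0.14 (SE 0.18), for H2afj 0.25 (SE 0.21), for Macroh2a1 0.03 (SE 0.08) and for Macroh2a2 0.17 (SE 0.19). Cenpa, the H3 variant of centromeres, had 0.65 (SE 0.36, unadjusted p = 0.121 in edgeR) with overlapping lines. A direct test of members against variants was not made.

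Genes of DNA replication and proliferation were also higher. Of 22 listed, 15 had a higher level at an unadjusted p-value under 0.05, 0 a lower one, against 5.88% and 8.77% of all tested genes, and none passed at an adjusted p-value under 0.05 in edgeR. The median log2 fold change was 0.53. Together they summed to 954, 1357 and 1029 CPM in WT lines 36, 47 and 78 and 1781, 1587 and 1360 CPM in KO lines 33, 41 and 72, a ratio of means of 1.42. KO line 72 and WT line 47 were almost level. Rrm2, a subunit of ribonucleotide reductase, had the smallest p-value of the list (0.96, SE 0.20, unadjusted p = 0.00284 in edgeR). It was followed by Cdc6, which loads the replicative helicase (0.64, SE 0.16, unadjusted p = 0.00684 in edgeR), and Mcm5, a subunit of that helicase (0.65, SE 0.17, unadjusted p = 0.00780 in edgeR).

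The order of the lines in this sum was close to that in the histone sum. Set against the replication genes, the histone genes had 1.68, 1.62 and 1.30 CPM per CPM in WT lines 36, 47 and 78 and 2.24, 1.70 and 1.70 in KO lines 33, 41 and 72. KO lines 41 and 72 were thus only just above WT line 36 on this ratio, and KO line 33 stood above all others. How far the histone difference goes with a difference in the share of cycling cells was not tested.

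**Figure D4:**
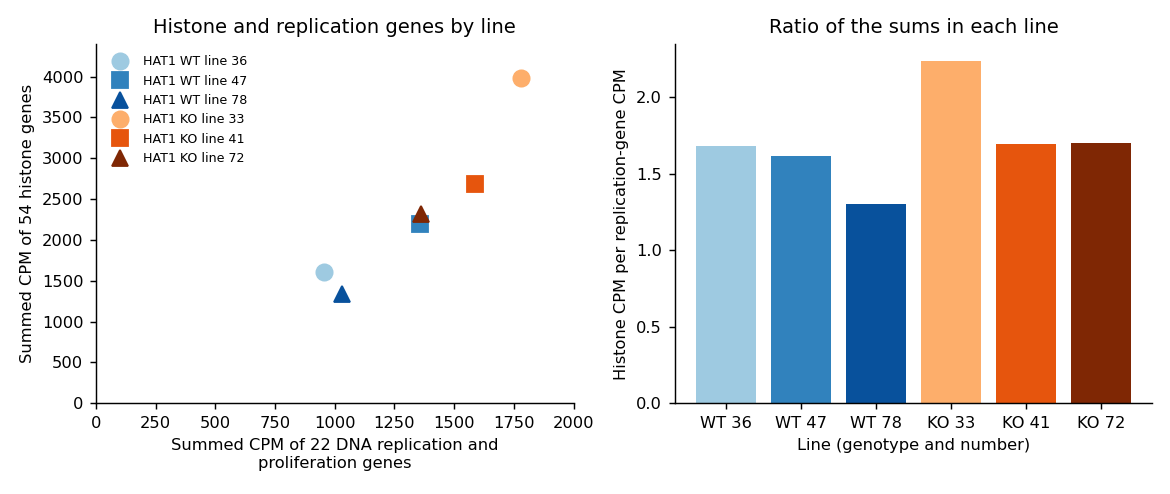
Summed CPM of the 54 histone genes against that of 22 DNA replication and proliferation genes in each line (left), and the ratio of both sums (right, bars from 0). WT line 47 and KO line 72 nearly coincide, and the ratio is 2.24 in KO line 33 against 1.30 to 1.70 in the other lines.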

How the data were processed

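RNA of 6 pMEF lines was sequenced from libraries made with the TruSeq RNA Sample Prep Kit from 200 ng of total RNA. The authors deposited 1 table of raw counts per gene. Their own comparison in that table, a log2 fold change, log2 CPM, F score, p-value and q-value per gene, was deposited by the authors too and was not used here. The submitters' processing notes name mm10 and edgeR. The aligner, the counter and the use of strand are not given in the sources used here. Among counts from 1 to 10, 75.1% were even, against 55.0% from 101 to 1000, so a fit on halved counts was run as an alternative.

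Groups follow the genotype in the labels. Testing of the counts used edgeR 4.0.16 under R 4.3.3 (filterByExpr, TMM scaling, quasi-likelihood fit on genotype, two-sided), adjusted by Benjamini-Hochberg over 14773 genes at 0.05. Each SE is approximate, the size of the log2 fold change over the root of its F. The test was first run on simulated data. CPM are TMM-scaled, and sums over a class are sums of CPM. Lengths, positions, overlaps and stem-loops are from GENCODE release 21 for mouse on GRCm38, and promoters from RefSeq on the same assembly. With 67720628 to 98786746 counts per library, the spread between lines sets the precision for all but the lowest genes. The rule for members reads symbols alone, but members and lists were chosen with earlier results of these data known. Named genes were Hat1, members with an unadjusted p-value under 0.05, the 3 highest of each class, the 5 largest changes, and in the lists Slbp, Npat, the 3 smallest p-values in each direction and every variant. Erythroid markers and 1 listed gene of histone mRNA processing were not analysed here. Alternatives were the DESeq2 1.42.0 Wald test, other scalings and filters, lane in the model, halved counts, and each line left out.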

Additional observations from a re-analysis of the deposited data

How the results depend on the processing

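The direction of the class ratios held under every alternative run, as did that of the medians of the lists for histone mRNA, variants and DNA replication. The marker lists were not rerun. With library size alone, DESeq2 size factors, lengths, filters, lanes or another choice of members, the log2 ratio over all members lay between 0.52 and 1.16, and without any one line between 0.55 and 1.03. Against WT line 78 alone it was 0.95 for H1 and 1.34 for H2A. Leaving out members that overlap another gene gave no H2A value, since all 14 overlap one. For members with at least 50% unique windows, an alternative chosen after seeing the data, no class moved by more than 1 SD. This is a loose check, since the SD of the class sums between lines was 0.32 to 0.45 on the log2 scale. The class log2 ratios themselves ran from 0.62 to 1.01, and for H2A only H2ac6 and H2ac8 were left. It cannot show that shared sequence has no part in the ratios.

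The count of members higher at an unadjusted p-value under 0.05 was 36, was 10 with the lane in the model, and ran from 14 to 42 without any one line. Over all tested genes the share was 5.88%, was 1.39% with the lane, and ran from 3.02% to 9.06% without any one line. At an adjusted p-value under 0.05 the count of members was 0 in edgeR and 25 with the DESeq2 Wald test. Why the tests differ was not tested. The Hat1 log2 fold change of -0.99 was -1.10 with the lane (adjusted p = 0.529 in edgeR) and between -1.08 and -0.87 without any one line, where its adjusted p-value missed 0.05 each time. Of 661 values of single members under 13 alternatives, 635 did not pass an adjusted p-value of 0.05, as in the main fit. The edgeR alternatives called at most 2 genes of the whole table higher, so this count says little about how stable the members are. Another 25 values passed (DESeq2). The remaining 1 changed sign, H3c15, which ran from -0.34 without KO line 72 to 0.038 without KO line 33. No paired analysis was possible because the genotypes share no replicate numbers. Hist1h2bq and the 3 members that were not tested had at most 17 counts in any line, and their values carry little precision.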
